A study of Arabidopsis thaliana with 12 samples.

Results

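The genes examined were GID1A (AT3G05120), GID1B (AT3G63010) and GID1C (AT5G27320), which encode the soluble gibberellin receptors of Arabidopsis thaliana. They were chosen by name and measured by the probe sets 259302_at, 251200_at and 246782_at, 3 of the 22810 on the Affymetrix ATH1 array. Signals are MAS5 intensities on a linear scale. The 12 arrays held 4 groups of 3, which the submitters describe as independent biological replicates.

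All seedlings were 7 days old, had been grown in the light on growth medium and carried a mutation in gibberellin (GA) synthesis or perception, so that no wild type was included. The ga-1 mutant (SALK_109115) is impaired in making GA and keeps its receptors. The triple mutant gid1a-1 gid1b-1 gid1c-2, called gid1 below, carries mutant alleles of all of the receptor genes. Treatment lasted 1 h in every group, with the gibberellin GA3 at 100 µM or with a mock solution.

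A GID1 receptor that binds GA takes hold of a DELLA protein, a nuclear repressor of growth, and the F-box protein SLY1 then directs the DELLA to degradation. DELLA proteins are known to raise the transcripts of several genes that restore GA signalling, receptor genes and GA-synthesis genes among them, so that GA lowers transcripts needed for its own action. The receptors belong to the plant carboxylesterase family and have lost the esterase activity of their relatives.

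GID1A fell after GA3 in ga-1 and stayed well above its gid1 level, GID1B fell into the range of the gid1 arrays, and no change was called for GID1C. In ga-1 mock seedlings the GID1A signal was 686.2 in replicate 1, 639.5 in replicate 2 and 710.1 in replicate 3. With GA3 it was 208.9, 194.0 and 235.4 in the same order. The groups did not overlap, and the 3 arrays within each lay close together. The log2 difference was -1.68 ± 0.22 (SE, 95% interval -2.14 to -1.22, limma adjusted p = 0.00059), so that 31.3% of the mock level was left.

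GID1B gave 457.6, 540.5 and 544.0 in the ga-1 mock arrays. With GA3 it gave 87.6, 73.3 and 79.0. Each mock array thus stood far above each GA3 array, and the log2 difference was -2.68 ± 0.24 (SE, 95% interval -3.18 to -2.19, limma adjusted p = 9.8e-06), a fall to 15.6% of the mock level. The gid1 arrays, where GID1B is mutated, stood at 12.1% (mock) and 18.2% (GA3) of that level. The 15.6% is thus a share of signal, which was not shown to be above background. Among the 15922 probe sets tested, GID1B ranked 6 and GID1A ranked 37 from the most negative log2 difference.

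GID1C gave 124.1, 99.4 and 79.1 in the ga-1 mock arrays. With GA3 it gave 78.4, 114.9 and 91.0, and the groups overlapped. The log2 difference was -0.08 ± 0.29 (SE, adjusted p = 0.98), with a 95% interval of -0.69 to 0.52. The interval is that of the probe set's signal. The signal was no lower in gid1, where the gene is mutated (values below), and no detection calls were used, so it was not shown to report GID1C transcript above background.

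In this comparison limma called 2 of the 3 receptor genes, both as lower with GA3. Of all tested probe sets 0.685% were called lower and 0.81% in either direction, and 7.17% had every GA3 array below every mock array. In whole seedlings, fewer cells of a type and less RNA per cell cannot be told apart.

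**Figure D1:**
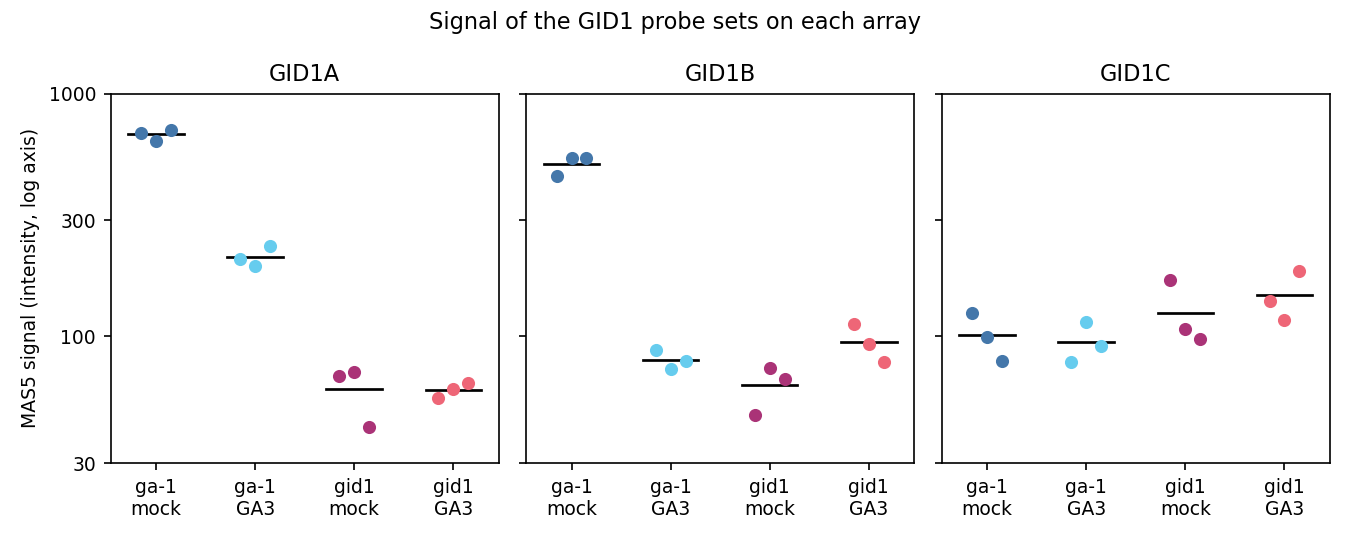
MAS5 signal (log axis) of each GID1 probe set on each of the 12 arrays, by group, with a bar at the group mean. GID1A steps down from ga-1 mock to ga-1 with GA3 and again to gid1, GID1B drops from ga-1 mock to a common low range in the other groups, and GID1C stays between 78.4 and 185.4 throughout.

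The paralogues were then set against each other in their response. Brightness differs between probe sets for reasons other than transcript number, so the absolute levels of the paralogues were not ranked, and only the change of their ratio within each array was used. The log2 ratio of GID1B to GID1A was -0.58, -0.24 and -0.38 in the ga-1 mock arrays. With GA3 it was -1.25, -1.40 and -1.58. All 3 GA3 arrays lay below all 3 mock arrays, a shift of -1.01 ± 0.30 (SE). With log2(value + 32), which damps changes at low signal, the shift was -0.74. The GID1B signals left with GA3 lay within the range of the gid1 arrays, where the gene is mutated, and were not shown to be above the background of the probes. The shift is therefore one of signals and does not give the fold between the falls of the transcripts.

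The ratio of GID1C to GID1A rose by 1.59 ± 0.29 (SE) on the log2 scale in ga-1. That of GID1C to GID1B rose by 2.60 ± 0.45 (SE). In both, the mock and GA3 arrays did not overlap. The GID1C signal was not shown to report its transcript above background, and its own log2 difference was -0.08. Both shifts therefore mainly restate the falls of GID1A and GID1B. Each of these ga-1 shifts had an exact permutation p of 0.1 (two-sided, 3 against 3 arrays), the smallest this design allows, and an adjusted p of 0.2 over the 6 ratio comparisons made. None can therefore pass 0.05.

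In gid1 the ratios moved less. GID1B to GID1A shifted by 0.58 ± 0.30 (SE, exact permutation p = 0.3), GID1C to GID1A by 0.23 ± 0.29 (p = 0.5 by the same exact test) and GID1C to GID1B by -0.34 ± 0.45 (p = 0.5, exact). Mock and GA3 arrays overlapped for each pair. The signals behind these ratios were low, and the ratio of GID1B to GID1A ranged from -0.54 to 0.66 within gid1 mock alone.

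**Figure D2:**
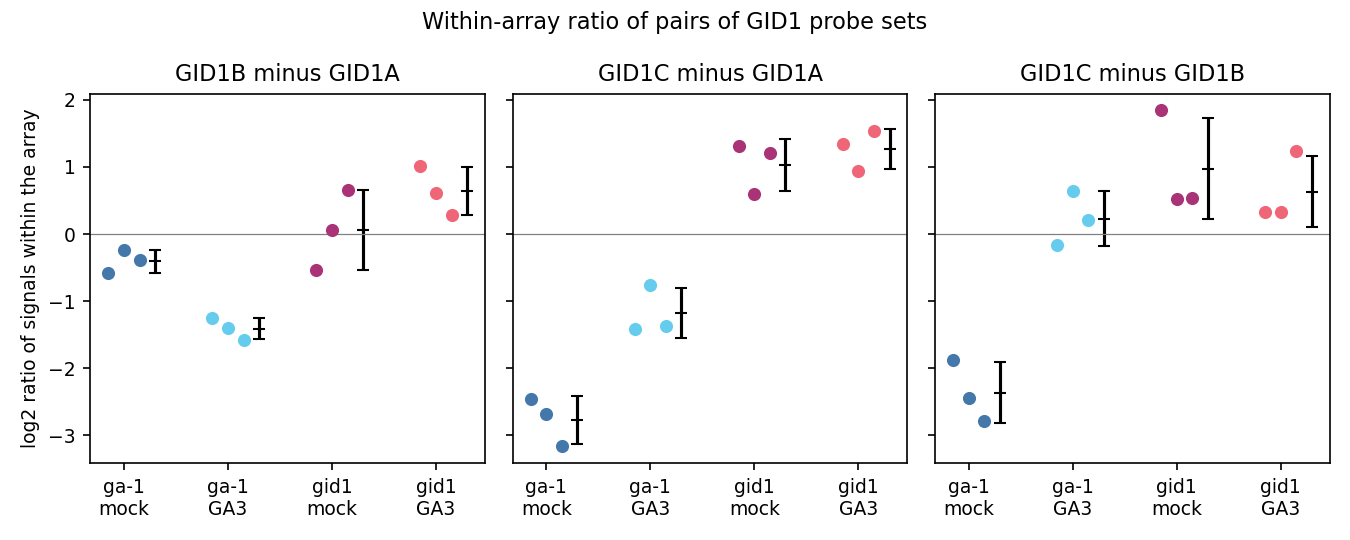
Log2 ratio of signals between pairs of GID1 probe sets within each array, by group, with the mean and SD of each group as a bar beside the points. Only changes along an axis are comparable, since the zero depends on probe brightness. In ga-1 every pair separates mock from GA3, and in gid1 no pair does.

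In gid1 seedlings the mutated genes differed in how much signal was left. GID1A gave 68.9, 70.9 and 42.4 in gid1 mock and 55.5, 60.9 and 64.0 in gid1 with GA3. Both sets lay below every ga-1 array, at 8.73% and 8.85% of the ga-1 mock level. GID1B gave 47.5, 74.2 and 66.9 in gid1 mock, 12.1% of its ga-1 mock level. GID1C gave 170.7, 107.0 and 97.6 in gid1 mock, 122% of its ga-1 mock level, and the gid1 and ga-1 mock arrays overlapped.

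Between the mock groups, limma called GID1A and GID1B as lower in gid1, with log2 differences of -3.52 (95% interval -3.98 to -3.06) and -3.05 (-3.55 to -2.55), where 0.0188% of all tested probe sets were called and 6.03% had every gid1 array below every ga-1 array. The ga-1 mock arrays enter both this comparison and the GA3 response in ga-1. GID1C had a log2 difference of 0.29 with a 95% interval of -0.31 to 0.89, so its array signal did not mark the gid1c-2 allele. The position of the probes relative to each mutation, and binding of one paralogue's transcript to another's probes, were not tested.

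GA3 made no called change in any receptor gene in gid1. The closest was GID1B, with 112.0, 93.1 and 78.3 in the GA3 arrays, each above each of the 3 mock arrays. Its log2 difference was 0.60 ± 0.24 (SE, 95% interval 0.10 to 1.10, limma adjusted p = 0.94). It was the 1 member with an unadjusted p under 0.05 in limma, where 5.26% of all tested probe sets had one and 0 were called. Groups separated in this direction for 4.74% of all tested probe sets. GID1A had a log2 difference of 0.02 (95% interval -0.44 to 0.48) and GID1C one of 0.26 (-0.35 to 0.86).

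The summed signal of seed markers also separated the gid1 groups. Of 16 seed and early-germination genes listed, 4 had a named probe set, namely PAP85, ICL, AT3G02480 and AT5G44310. Their summed signal was 1440.9 to 3942.6 in gid1 with GA3 against 149.6 to 414.6 in gid1 mock. By replicate it was 1440.9, 3942.6 and 2900.7 in gid1 with GA3, where GID1B was 112.0, 93.1 and 78.3. AT3G02480 made up most of the sum there, with a mean of 1970 ± 1000 (SD), against 550 for ICL and 220 for PAP85. The sum of the 4 markers was 278.2 to 2426.9 in ga-1 mock, with the highest value in replicate 2, and 313.7 to 413.0 in ga-1 with GA3. No marker was at 0 in a group mean, and AT5G44310, which did not pass the filter, was the lowest of them. The part of seed tissue in the GID1B difference in gid1 was not tested. In ga-1, where replicate 2 of mock stood apart, the log2 differences without that array were -1.72 for GID1A (limma adjusted p = 0.0056) and -2.65 for GID1B (adjusted p = 0.00024).

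Green seedling tissue was present throughout. RCA, which encodes the activase of the carbon-fixing enzyme Rubisco, gave 20340.6 to 28560.3, and was the 1 of 6 listed shoot markers with a named probe set. The root-hair expansin genes EXPA7 and EXPA18, 2 of 5 listed root markers, summed to 190.5 to 292.8.

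With GA3 in both mutants, GID1A remained lower in gid1 than in ga-1, while GID1B did not separate them. The log2 difference of GID1A (gid1 minus ga-1) was -1.82 ± 0.22 (SE, limma adjusted p = 0.00021), and it was the 1 member called as lower, as were 0.352% of all tested probe sets, with 1.26% called in either direction. That of GID1B was 0.23 ± 0.24 (SE, 95% interval -0.27 to 0.73, adjusted p = 0.80). For GID1C the gid1 arrays with GA3 gave 140.2, 116.6 and 185.4, all above the 3 ga-1 arrays with GA3. Its log2 difference was 0.63 ± 0.29 (SE, 95% interval 0.02 to 1.23), and with an adjusted p of 0.44 it was not called. Groups separated in this direction for 6.98% of all tested probe sets.

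Which steps were called in the order of the groups therefore differed by gene. For GID1A it ran from ga-1 mock through ga-1 with GA3 to gid1 with GA3 and gid1 mock, and limma called each step except the last (log2 difference 0.02, adjusted p = 1). For GID1B ga-1 mock stood first, 2.45 on the log2 scale above gid1 with GA3 (limma adjusted p = 9.0e-05, a comparison in which 0.0188% of all tested probe sets were called). The steps from there to ga-1 with GA3 (0.23, adjusted p = 0.80) and on to gid1 mock (0.37, adjusted p = 0.67) were not called, and in the latter comparison 1.14% of all tested probe sets were. For GID1C gid1 with GA3 stood first, followed by gid1 mock, ga-1 mock and ga-1 with GA3, and no step was called (adjusted p of 0.96, 0.99 and 0.98 in limma).

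The spread of the measurements also differed. The residual SD over all arrays was 0.23 on the log2 scale for GID1A and for GID1B, near the median of 0.22 over all tested probe sets, and 0.35 for GID1C. The coefficient of variation in ga-1 mock was 5.29% for GID1A, 9.51% for GID1B and 22.3% for GID1C.

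**Figure D3:**
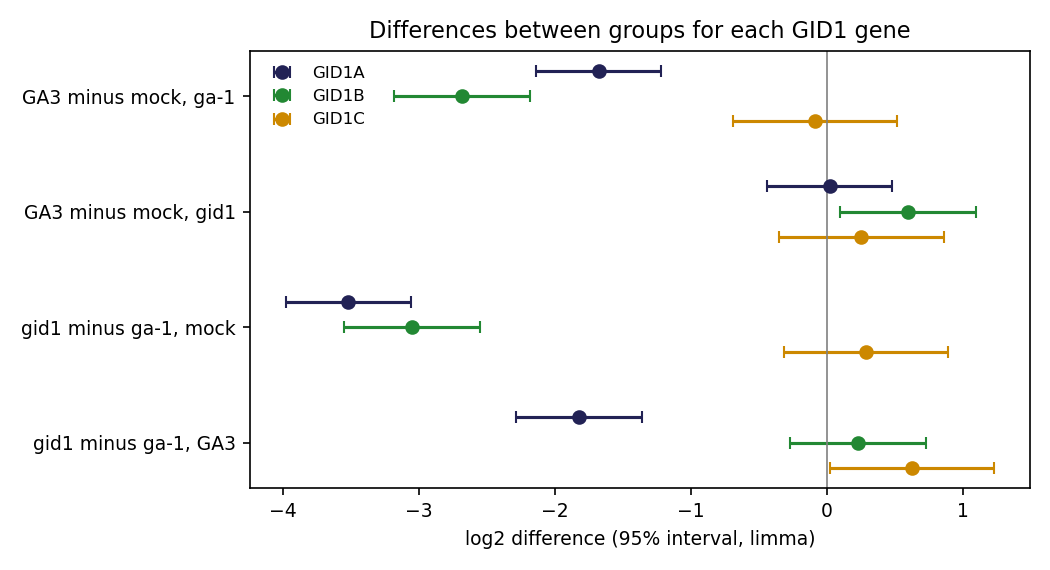
Log2 differences of the GID1 genes in 4 comparisons, as points with limma 95% intervals. GID1A and GID1B lie far below 0 for GA3 against mock in ga-1 and for gid1 against ga-1 in mock, GID1A alone does so for gid1 against ga-1 with GA3, and the intervals of GID1C reach from -0.69 to 1.23.

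The study's design asks whether a GA response needs the receptors, and this was tested as the difference of the responses (ga-1 minus gid1). It was -3.28 ± 0.33 (SE, limma adjusted p = 0.00012) for GID1B and -1.70 ± 0.31 (SE, adjusted p = 0.029) for GID1A. For GID1C it was -0.34 ± 0.40 (SE, 95% interval -1.19 to 0.52, adjusted p = 0.92). Thus 2 of the 3 genes were called, where 0.22% of all tested probe sets were. The call of GID1A was lost in 9 of 19 alternative settings (adjusted p from 0.0045 to 0.12), that of GID1B in none of 19.

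For the receptor genes this difference has a limit of its own. Both called genes are among those mutated in gid1, and both were already low there before GA3. Set against the level that GA3 left in ga-1, the gid1 mock level differed by -1.84 ± 0.22 (SE) on the log2 scale for GID1A and by -0.37 ± 0.24 (SE) for GID1B. In this difference, a missing response and the low starting level of the mutated genes cannot be told apart.

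Other genes of the pathway, listed by role, were covered in part. Listed were 14 genes of GA synthesis, 9 of GA inactivation and 5 DELLA genes, and these are not analysed here. All 4 genes of DELLA turnover and sugar modification were tested, and 1 fell in ga-1, where 0.685% of all tested probe sets were called lower. That was SLY1 (AT4G24210), whose ga-1 signal went from 919 ± 29.9 to 418 ± 69.9 (SD over 3 arrays). Its log2 difference was -1.15 (limma adjusted p = 0.0042). The other members are SLY2, a homologue of SLY1, and SPY and SEC, which attach sugars to proteins including DELLAs. None of the 4 was called by limma in gid1, where 0 of all tested probe sets were. At an unadjusted p under 0.05 the count for the 4 was 0 in gid1, against 5.26% of all tested probe sets. For SLY1 the difference of the responses was -0.95 (limma adjusted p = 0.24) and was not called, so its response was not shown to differ between the mutants. The list's median log2 difference was -0.19 in ga-1 and -0.14 in gid1.

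The list of other DELLA-raised genes holds 7, of which 3 had a named probe set. All 3 were tested and 1 fell, against the same share of 0.685% called lower, with a list median of -0.78 in ga-1 and -0.13 in gid1. It was XERICO (AT2G04240), a RING-type gene linked to abscisic acid, with 1987.0, 1878.9 and 1964.0 in ga-1 mock and 528.0, 341.9 and 437.5 with GA3. In gid1 it gave 1933.3, 2079.8 and 2241.9 in mock and 2014.8, 1818.1 and 1716.0 with GA3, and all 6 arrays lay far above the ga-1 arrays with GA3. The median over all tested probe sets was 0.01 in ga-1 and in gid1. All 3 had an unadjusted limma p under 0.05 in ga-1, as had 7.83% of all tested probe sets. AT5G50915 was not called, at -0.78 in ga-1 (limma adjusted p = 0.056), 0.48 in gid1 (0.94) and -1.26 in the difference (0.053). AT2G31730 was not called either, at -0.38 in ga-1 (limma adjusted p = 0.63). The list was chosen with earlier results of these data known.

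No carboxylesterase relative of the receptors was called. Among 17 other members of the carboxylesterase family, a named probe set was found for 12, and 9 of these passed the filter. None was called by limma in ga-1, in gid1 or in the difference, where 0.81%, 0 and 0.22% of all tested probe sets were. At these shares, the lack of a call among 9 genes says little about the family. At an unadjusted p under 0.05 the counts were 1, 0 and 1. Of all tested probe sets, 7.83% had such a p in ga-1 and 5.26% in gid1, and the share for the difference was not counted. The 9 genes had a median log2 difference of 0.33 in ga-1, with a range of -0.70 to 1.08, against -1.68 and -2.68 for GID1A and GID1B. CXE18 and AT2G03550 had the smallest p. CXE18 gave 353 ± 27.2 in ga-1 mock arrays and 488 ± 74.9 (SD) in those with GA3, a log2 difference of 0.46 (limma adjusted p = 0.48). AT2G03550 gave 144 ± 14.0 and 200.1 ± 32.7, a log2 difference of 0.47 (adjusted p = 0.65). The difference between the receptor genes and this family was not tested.

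**Figure D4:**
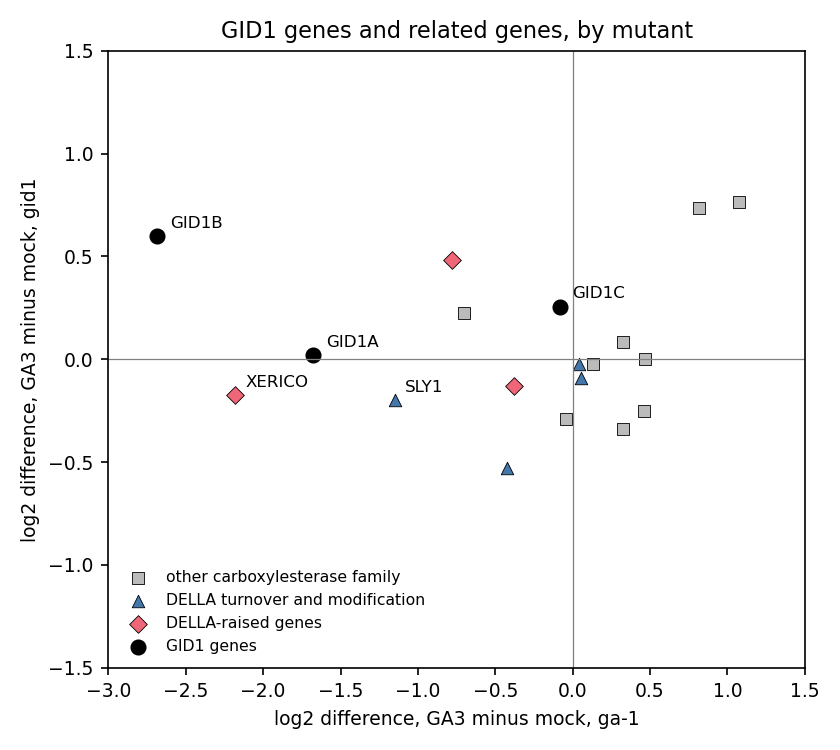
Log2 difference between GA3 and mock in ga-1 (horizontal) and in gid1 (vertical) for the GID1 genes, the other tested carboxylesterase genes, the genes of DELLA turnover and modification, and the genes known as raised by DELLA proteins. GID1B, XERICO, GID1A and SLY1 lie furthest to the left, at -2.68, -2.18, -1.68 and -1.15, while GID1C and the carboxylesterase relatives lie between -0.70 and 1.08.

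The genes whose profiles were most like those of the receptors were found by the root mean square difference of mean-centred log2 values. This measure counts the size of a change as well as its shape, and it ran over 8769 other tested probe sets with 1 named gene each. Over the 6 ga-1 arrays, where the receptor genes are not mutated, XERICO was nearest to GID1B, at 0.29, followed by GID1A at 0.52. IQD22, TRM28 and AT1G28190 came next, at 0.62 to 0.64. XERICO was also the nearest to GID1B in 9 of 9 other settings of scaling, offset or arrays left out.

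For GID1A the nearest were AT5G40540, a protein kinase gene, and AT5G47610, a RING-type gene, both at 0.17. IQD22, which encodes a calmodulin-binding protein, lay at 0.20, and AT1G60590 and TRM28 lay at 0.27. AT5G40540 was nearest in 4 of 9 other settings, so its place among close neighbours is not firm. GID1B ranked 80 from GID1A, at 0.52, with a more negative log2 difference. GID1C lay 0.85 from GID1A, about as far as a gene with no variation would (0.84).

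AT5G40540 gave 616.7, 638.5 and 586.3 in ga-1 mock and 229.3, 227.6 and 252.2 with GA3. In gid1 it gave 592.2, 691.2 and 657.9 in mock and 623.0, 683.2 and 739.3 with GA3, so only the ga-1 arrays with GA3 were low. The nearest genes of GID1A and GID1B outside the family fell in ga-1 by log2 differences of -1.30 (AT1G60590, limma adjusted p = 0.026) to -2.18 (XERICO, adjusted p = 2.0e-07). They were picked on these arrays for that likeness, so the falls are a description. The calls of AT1G60590 and AT1G28190 were lost in 6 and 4 of 21 alternative settings. In gid1 none of them was called, where 0 of all tested probe sets were. In the difference of the responses, limma called XERICO, AT5G40540, IQD22 and TRM28, where 0.22% of all tested probe sets were called. No such call was made for AT5G47610 (limma adjusted p = 0.085), AT1G60590 (adjusted p = 0.16) or AT1G28190 (adjusted p = 0.24). The ga-1 arrays on which these genes were picked enter that difference too, so its calls are likewise a description.

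Over all 12 arrays, GID1A and GID1B were each other's nearest profile, at 0.81. That likeness includes their low signal in gid1. The next for GID1A were AT4G33720 (0.84), GH9B12 (1.13), AT4G24710 (1.15) and AT1G55040 (1.16), and for GID1B they were AT5G12930, AT2G47720, AT5G33370 and NERD (0.92 to 0.93). These distances are large beside the 1.47 and 1.22 of GID1A and GID1B from a flat line. For GID1C, whose own variation was 0.38 over 12 arrays and 0.25 over the ga-1 arrays, the nearest were AT5G37670 (0.20) and HON4 (0.05), respectively, and likeness to so flat a profile carries little information.

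**Figure D5:**
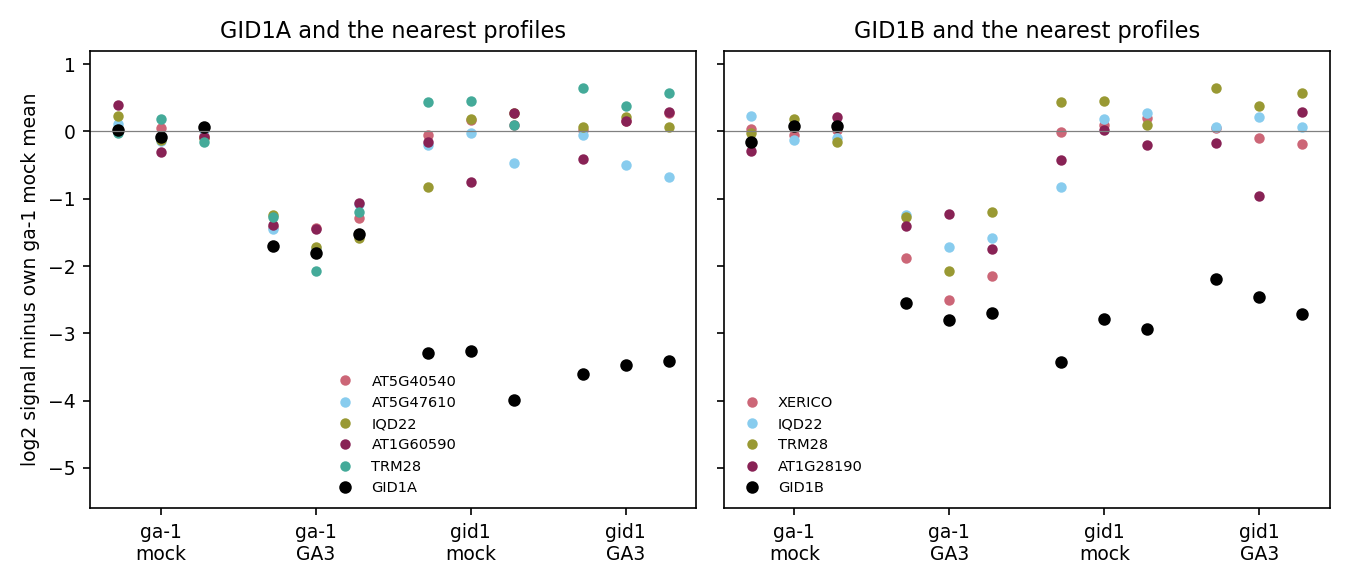
Log2 signal of GID1A (left) and GID1B (right) and of the nearest genes over the ga-1 arrays, each relative to its own mean in ga-1 mock (vertical axis), on each of the 12 arrays by group. All lie lower in ga-1 with GA3 than in ga-1 mock. In gid1 the neighbours scatter around their ga-1 mock level, with single arrays from -0.96 (AT1G28190) to 0.65 (TRM28), while GID1A and GID1B stay low.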

How the data were processed

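Transcripts were measured on 12 one-colour Affymetrix ATH1 arrays, grouped by their titles. A description field names GA3 for mock samples too, and the titles were followed. The deposited values are intensities on a linear scale, made with MAS5 (version not given) per the submitters' processing notes. The mean without the lowest and highest 2% was 500.0 on each array, and array medians were 169.7 to 188.8. Neither detection calls nor scanner files were used.

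A floor of 1 was set before taking log2. After removal of 64 control probe sets and of the 30% of probe sets with the lowest mean (log2 under 5.55), 15922 remained, all 3 receptor genes among them. In R 4.3.3, limma 3.58.1 (lmFit, eBayes with an intensity trend) was fitted to 4 group means over 12 arrays and tested on simulated data. P-values were adjusted by Benjamini-Hochberg over all tested probe sets, with a threshold of 0.05. Differences in response between paralogues used exact permutation of within-array ratios, with SE from the ratio's spread pooled over 4 groups. Precision is limited by 3 arrays per group.

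Names came from the platform annotation, updated with a TAIR10.1 gene table: 13513 had 1 symbol, 503 several, and 8794 were unnamed here. Named genes were the receptor genes, the 5 nearest profiles of each over 12 and over the 6 ga-1 arrays, and called members of each list or the 2 with the smallest p. Members and lists were chosen with earlier results of these data known. Same-numbered replicates did not deviate together (correlations of -0.12 to 0.10), so the numbers were not used as pairs. Alternatives were other scalings, filters and offset, no trend, array weights, a replicate block, the compared groups alone and each array left out.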

Additional observations from a re-analysis of the deposited data

Results flagged for a closer look

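The GA3 response differed between ga-1 and gid1, by limma's test of the difference, for several genes named above. Among the receptor genes, the response in ga-1 minus that in gid1 was -3.28 for GID1B and -1.70 for GID1A on the log2 scale. Among their nearest neighbours it was -1.45 for AT5G40540, -1.72 for TRM28, -1.75 for IQD22 and -2.01 for XERICO. These neighbours were picked on the ga-1 arrays, which enter this difference, so their values and p values are a description. Of all tested probe sets 0.22% were called in the difference. The adjusted p values were 0.00012 for GID1B and for XERICO, 0.00088 for AT5G40540, 0.030 for IQD22, 0.047 for TRM28 and 0.029 for GID1A. For GID1A and GID1B the gid1 signal was already low in mock, and for the 4 neighbours it was not. Besides GID1A, the calls of IQD22 and TRM28 were lost in 10 of 20 and 15 of 19 alternative settings. XERICO, AT5G40540 and GID1B kept theirs in all settings run. Of the 3 tested seed markers, 1 was also called in the difference. This was AT3G02480, at -4.77 (limma adjusted p = 0.018), with log2 differences of -1.25 in ga-1 and 3.52 in gid1. It was not followed over the alternative settings.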

How the results depend on the processing

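Of 417 values of the receptor genes under alternative settings, 404 kept their direction and their side of the threshold. The 9 that lost their call were all the difference of responses of GID1A: it was -1.70 without a filter on low values (adjusted p = 0.081) and -1.70 with the replicate block (adjusted p = 0.066), and -1.83 to -1.46 with an array left out. It was not called without ga-1 mock replicates 1, 2 or 3, ga-1 GA3 replicates 1 or 2, or gid1 GA3 replicates 2 or 3. The cause was not tested. The replicate block changed no other call of a receptor gene. The 4 values that changed sign were those of GID1C in ga-1 and GID1A in gid1, which were not called in any setting run. GID1C in ga-1 ranged from -0.25 to 0.08 and GID1A in gid1 from -0.22 to 0.15 with an array left out. Apart from these 4, the change of the ratio of GID1C to GID1B in gid1 ran from -0.65 to 0.09. With arrays left out, the falls in ga-1 were -1.75 to -1.61 for GID1A and -2.77 to -2.62 for GID1B, all called. With log2(value + 32) the fall of GID1B was -2.28. The filter at the 50th percentile removed all 3 receptor genes, so it gives no value for them, and the fit of the compared groups alone does not apply to the difference of responses.

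Counts of calls moved more. Which genes the fits share was not counted. Without the intensity trend the total was 60 against 129 in ga-1, 12 against 35 in the difference and 110 against 201 between mutants with GA3. In the compared groups alone the total was 120 against 201 between mutants with GA3 and 5 against 0 in gid1, and the replicate block gave 1 there. The stricter filter gave 0 against 3 between mock groups, and GID1A and GID1B were not tested. With an array left out the counts ran from 66 to 130 in ga-1 (71, 66 and 70 without ga-1 mock replicates 1, 2 and 3), 0 to 2 in gid1, 17 to 64 in the difference, 2 to 5 between mock groups and 124 to 287 with GA3. The lowest in the difference was without ga-1 mock replicate 2, the highest without ga-1 GA3 replicate 3, and 124 was without gid1 GA3 replicate 2.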
